A study of Homo sapiens with 12 samples.

Results

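The cytosolic ribosome is built on ribosomal RNA from 2 sets of proteins, the RPL proteins of the large subunit and the RPS proteins of the small subunit, most of them encoded by a single active gene. The genes described here were chosen by symbol: RPL or RPS followed by a number and, where present, an A or X, together with RPLP0, RPLP1, RPLP2 and RPSA. The rule found 77 genes among the 56609 symbols of the deposited count table, 46 for the large subunit and 31 for the small subunit. All 77 passed the filter on low counts. The rule uses no measured value, but the set was chosen with earlier results of these data known. The rule leaves out FAU, which also encodes a ribosomal protein, and the paralogues whose symbols end in L; these are described separately below.

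Ribosomal protein mRNAs are known for 2 shared features. Their promoters drive high transcription without much tissue preference, with ETS-family factors, YY1 and MYC among the factors described at them. Their transcripts start at a C followed by a run of pyrimidines, the terminal oligopyrimidine (TOP) motif, through which the kinase mTOR and the RNA-binding protein LARP1 control translation. A growing cell spends a large part of its mRNA and protein synthesis on ribosomes, so the set follows growth programmes, and single members such as RPL5 and RPL11 also signal failed ribosome assembly to p53 through MDM2.

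RNA was sequenced from A375 cells, an established line from a human melanoma that carries activated BRAF. The question behind the series was why cells that lack MAPKAPK2, which encodes the kinase MK2 downstream of the stress kinase p38, better withstand drugs against BET bromodomain proteins, the chromatin readers that JQ1 displaces from acetylated histones. There were 4 groups of 3 replicates: wild-type cells with DMSO, wild-type cells with 500 nM JQ1, MAPKAPK2-knockout cells with DMSO, and MAPKAPK2-knockout cells with 500 nM JQ1, each for 48 h. The knockout was made with CRISPR/Cas9; the labels do not say whether it is a clone or a pool. Drug-free samples carry the word untreated in their titles and DMSO as their treatment, and are called DMSO here. Nothing in the labels says that replicates were separate cultures, so p-values measure the spread between these samples, which may be technical.

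The libraries held 25316899 to 34594295 counts. MAPKAPK2 was at 87.9 to 119.7 CPM (counts per 1000000, TMM-scaled) in the 6 wild-type libraries and at 11.1 to 15.7 CPM in the 6 knockout libraries. Of the melanocyte and neural crest markers, SOX10 had a mean of 437 CPM and S100B of 29.3 CPM in wild-type DMSO. The pigment gene MLANA had a mean of 0.78 CPM there and PMEL of 0.51 CPM, and TYR and DCT did not pass the filter on low counts. Summed keratinocyte markers ran from 3.998 to 7.31 CPM, fibroblast markers from 8.10 to 13.2 CPM and leukocyte markers from 0.85 to 1.52 CPM, with PTPRC, CD3E and CD14 below the filter. Lineage markers also differed between the genotypes: in knockout cells MITF was lower (log2 fold change -0.58 in DMSO and -0.37 under JQ1, edgeR adjusted p = 0.000323 and 0.0102) and S100B higher (0.45 and 0.41, edgeR adjusted p = 0.000403 and 0.000756). SOX10 was at 0.00 in both and did not pass. With JQ1, SOX10 and S100B rose and S100A1 fell in both genotypes. The part of these differences in the members' results was not tested. JQ1 replicate 3 of the knockout stood apart from its own group, with a chi-square per degree of freedom of up to 27.5 against its replicates, where no other replicate pair exceeded 7.64.

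Start regions of 10 members are printed here. They are the 4 that rose most and the 4 that fell most with JQ1 in wild-type cells, and RPS12 and RPS3. With RPL21 and RPS27A, RPS12 and RPS3 had the largest rises from wild-type to knockout cells when both had JQ1. The sequences are from RefSeq on GRCh38.p14, on the strand of the gene, from 40 bases before the annotated start to 20 bases from it. Capitals mark an unbroken pyrimidine run that begins with C at the start and holds at least 4 more C or T; where a gene had several annotated starts, the one with the longest run is shown. The first 4 are genes that were higher with JQ1 in wild-type cells.
RPLP0 (chr12:120201092-120201151, minus strand): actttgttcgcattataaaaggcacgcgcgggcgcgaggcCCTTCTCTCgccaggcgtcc
RPLP1 (chr15:69452778-69452837, plus strand): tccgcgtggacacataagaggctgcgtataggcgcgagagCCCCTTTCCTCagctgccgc
RPS28 (chr19:8321456-8321515, plus strand): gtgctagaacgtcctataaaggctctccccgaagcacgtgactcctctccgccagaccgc
RPS15 (chr19:1438356-1438415, plus strand): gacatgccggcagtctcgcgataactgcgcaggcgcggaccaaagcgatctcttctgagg

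The next 4 are genes that were lower with JQ1 in wild-type cells, and RPS12 and RPS3 follow.
RPL21 (chr13:27251518-27251577, plus strand): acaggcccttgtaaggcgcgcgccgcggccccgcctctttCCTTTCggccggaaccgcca
RPS27A (chr2:55232648-55232707, plus strand): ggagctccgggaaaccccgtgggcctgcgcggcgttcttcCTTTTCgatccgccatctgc
RPL6 (chr12:112409266-112409325, minus strand): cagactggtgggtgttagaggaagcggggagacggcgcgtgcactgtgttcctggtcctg
RPL29 (chr3:51995876-51995935, minus strand): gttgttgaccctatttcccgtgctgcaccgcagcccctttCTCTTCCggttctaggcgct
RPS12 (chr6:132814529-132814588, plus strand): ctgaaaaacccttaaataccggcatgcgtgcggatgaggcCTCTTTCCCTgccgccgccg
RPS3 (chr11:75399478-75399537, plus strand): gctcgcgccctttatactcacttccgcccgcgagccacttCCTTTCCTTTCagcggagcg

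RefSeq promoters were matched to 62 of the 77 members by symbol. A start run of this kind was present in 46 of the 62 (74.2%), with 5 to 19 bases and a median of 8, against 5.14% of the 27305 genes with a promoter. The runs differ between the printed genes: RPLP1 and RPS3 have 11 bases, RPS12 has 10, RPLP0 has 9, RPL29 has 7, and RPL21 and RPS27A have 6. RPS28, RPS15 and RPL6 have none at the annotated start, though in RPS28 a pyrimidine run led by C begins at the next base. Of these 3, RPS28 and RPS15 rose and RPL6 fell with JQ1 in wild-type cells, and genes with a run were likewise among the rises and the falls. A run at exactly the annotated start did not split the JQ1 response. In wild-type cells the median log2 fold change was -0.10 for the 46 members with a run and -0.10 for the 16 without.

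The 77 genes together took 6.003% to 7.65% of the counts of a library. Mean levels over the 12 libraries ran from 39.4 CPM for RPL18 to 3191 CPM for RPL13A, with a median of 757 CPM, against a median of 19.4 CPM for the 14078 other tested protein-coding genes. Even the lowest count of a member in any library was 649. The members' transcripts are short, with a median of 644 nt against 1595 nt for the other protein-coding genes, and have a median GC content of 51.5%.

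Per kilobase of transcript the members' levels still spanned from 64.3 to 4606 CPM per kb. RPL41, which encodes the smallest ribosomal protein, was highest at 4606 CPM per kb, ahead of RPS27 at 3081 and of RPLP0 at 3014 CPM per kb. RPL18 was lowest at 64.3, below RPS26 at 74.2 and RPS28 at 105 CPM per kb. RPL18, RPS26 and RPS28 thus lay far below RPL41, although nearly all ribosomal proteins are present once per ribosome. Processed pseudogenes of 74 members had 951 rows in the table. For 4 members these rows held more than 10% of the parent gene's counts: 343% for RPL23A, 210.2% for RPL9, 40.4% for RPS28 and 31.6% for RPL21. They held under 1% for the other 73.

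The summed level of the 77 genes was higher in knockout than in wild-type cells and, in wild-type cells, lower with JQ1. It was 65294, 66348 and 68639 CPM in wild-type DMSO and 62613, 64932 and 62437 CPM in wild-type JQ1. In knockout cells it was 75193, 73779 and 72532 CPM with DMSO and 73576, 68979 and 69285 CPM with JQ1. All 6 knockout libraries lay above all 6 wild-type libraries. JQ1 and DMSO did not overlap in wild-type cells and did overlap in knockout cells. With 3 against 3, a two-sided exact permutation test cannot go below p = 0.1 for any single pair of groups; no test was run on this sum. In these bulk samples, fewer cells and less RNA per cell cannot be told apart, and CPM give shares of the measured RNA only.

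Together the abundant noncoding RNAs RN7SK, RN7SL1, RN7SL2 and RMRP took a higher mean share in knockout than in wild-type cells, as the members did. With JQ1 the members' mean share of counts fell in both genotypes, and that of these RNAs rose. They took 9.42% to 9.76% of counts in wild-type DMSO, 10.6% to 11.7% in wild-type JQ1, 10.5% to 11.6% in knockout DMSO and 11.03% to 14.6% in knockout JQ1, where replicate 3 was highest. With these 4 genes left out of the total, the members took 7.65% to 7.999% of counts in wild-type DMSO and 8.35% to 8.60% in knockout DMSO. Under JQ1 the shares were 6.80% to 6.98% in wild-type and 7.51% to 7.91% in knockout cells. The order of the genotypes was thus the same without them.

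Large-subunit and small-subunit mRNAs moved nearly in step with JQ1 in wild-type cells, and less so in knockout cells. Their summed levels had a ratio of 1.527 to 1.53 in wild-type DMSO, 1.519 to 1.527 in wild-type JQ1, 1.545 to 1.557 in knockout DMSO and 1.481 to 1.493 in knockout JQ1. The knockout had the highest ratio without the drug and the lowest with it, and neither of its groups overlapped any other group.

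**Figure D1:**
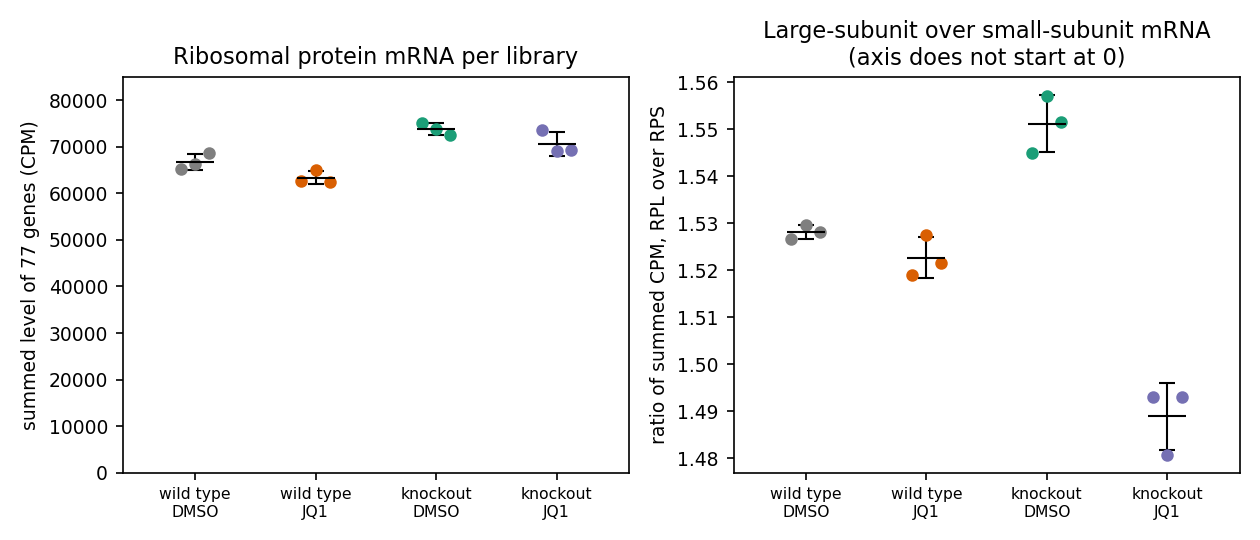
Summed level of the 77 ribosomal protein genes in CPM (left, axis from 0) and the ratio of summed large-subunit to small-subunit CPM (right, axis not from 0) in each library. Points are libraries, bars and whiskers the mean and SD of 3; the 6 knockout libraries, at 68979 to 75193 CPM, lie above the 6 wild-type libraries, and knockout JQ1 has the lowest subunit ratio, 1.481 to 1.493.

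JQ1 in wild-type cells lowered more ribosomal protein mRNAs than it raised, and the changes were small. With edgeR's quasi-likelihood test and Benjamini-Hochberg adjustment over 21698 genes, 9 members were higher and 28 lower at an adjusted p under 0.05. Over all tested genes 33.1% were called, 16.9% higher and 16.2% lower. The median log2 fold change of the members was -0.11, and that of all tested genes was -0.03. The groups did not overlap for 13 members in the upward and 41 in the downward direction, where 24.4% and 26% of all genes did so. Scaling by library totals alone, without TMM, gave 4 higher and 50 lower, and moved the median of all genes to -0.16. Without DMSO replicate 3 of the wild type 14 members were lower, and without JQ1 replicate 1 of the wild type 16 were.

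RPL21 had the largest fall. This large-subunit protein gene lies at chr13:27251309-27256691 (GRCh38, GENCODE 29). Its level was 451, 494 and 491 CPM with DMSO and 287, 294 and 296 CPM with JQ1, a log2 fold change of -0.71 ± 0.08 (SE, n = 3 per group; edgeR adjusted p = 6.03e-06). All JQ1 libraries were below all DMSO libraries. With the counts of its pseudogenes added, the log2 fold change was -0.66.

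RPS27A, which encodes a small-subunit protein fused to ubiquitin, went from 513, 505 and 507 CPM to 349, 375 and 386 CPM. Its log2 fold change was -0.46 ± 0.07 (edgeR adjusted p = 0.000164). FAU, whose product is a small-subunit protein fused to a ubiquitin-like protein, was at a log2 fold change of 0.13 (edgeR adjusted p = 0.108). RPS27A thus fell with JQ1 in all 3 libraries, and FAU did not pass the test.

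RPL6 and RPL29, both of the large subunit, were the next largest falls. RPL6 was at 1500.2, 1458 and 1499.6 CPM with DMSO and at 1096, 1147 and 1119.7 CPM with JQ1 (log2 fold change -0.41 ± 0.06, edgeR adjusted p = 5.64e-05). RPL29 was at 1249.8, 1263 and 1318 CPM against 986, 1023 and 957 CPM (-0.37 ± 0.05, edgeR adjusted p = 7.51e-05). In both genes the groups were well apart. RPL5 and RPL11, which carry the smallest ribosomal RNA of the large subunit and bind MDM2 when free, fell together. RPL5 went from 543, 553 and 559.6 CPM to 454, 469.8 and 467 CPM (-0.25 ± 0.05, edgeR adjusted p = 0.00139), and RPL11 from 855, 868 and 811 CPM to 690.3, 716 and 694 CPM (-0.27 ± 0.07, edgeR adjusted p = 0.00811).

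The largest rise was in RPLP0. It belongs to the acidic stalk, the lateral protrusion that recruits translation factors to the large subunit. Of 4 stalk members 2 were higher and none lower, where 16.9% and 16.2% of all genes were. So few genes do not set the stalk apart. RPLP0, the stalk base (chr12:120196686-120201235, minus strand), was at 2015, 1969.7 and 2051 CPM with DMSO and at 2466, 2603 and 2422 CPM with JQ1, a log2 fold change of 0.31 ± 0.06 (edgeR adjusted p = 0.001). RPLP1, an acidic protein bound to it, went from 1066, 1151 and 1188 CPM to 1392, 1425 and 1304 CPM (0.27 ± 0.06, edgeR adjusted p = 0.00224). Neither gene's groups overlapped. The other stalk members did not pass the test: RPLP2 was at 0.07 and RPL12, which sits at the stalk base, at -0.01 on the log2 scale.

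Among small-subunit genes, RPS28 and RPS15 rose most. RPS28 went from 117, 117 and 123 CPM to 151, 148 and 140.1 CPM (0.29 ± 0.06, edgeR adjusted p = 0.00101). RPS15, a protein near the decoding site, went from 192, 203 and 213 CPM to 255, 247 and 242 CPM (0.29 ± 0.06, edgeR adjusted p = 0.000951). Both were separate from DMSO in every library. RPS6, the target of the S6 kinases, was at 2123, 2083 and 2126 CPM with DMSO and at 1889, 1931 and 1976 CPM with JQ1 (-0.13 ± 0.04, edgeR adjusted p = 0.0312). That small fall passed the test in 13 of 23 alternative analyses.

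Grouped by place in the ribosome, falls were spread over both subunits. Over all tested genes 16.9% were higher and 16.2% lower, and no group was tested against these shares. In the large subunit 5 of 46 members were higher and 17 lower, and in the small subunit 4 of 31 were higher and 11 lower. Of 8 proteins lining or ringing the nascent-peptide exit tunnel, 2 were lower and none higher, with a median of -0.13. Of 7 small-subunit proteins along the mRNA path, 2 were higher and 1 lower, with a median of 0.02. Of 18 members mutated in Diamond-Blackfan anaemia, an inherited failure of red cell production, 1 was higher and 6 lower, with a median of -0.08. Of 25 members with small nucleolar RNAs in their introns, 2 were higher and 8 lower, with a median of -0.11, against -0.11 for all 77.

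**Figure D2:**
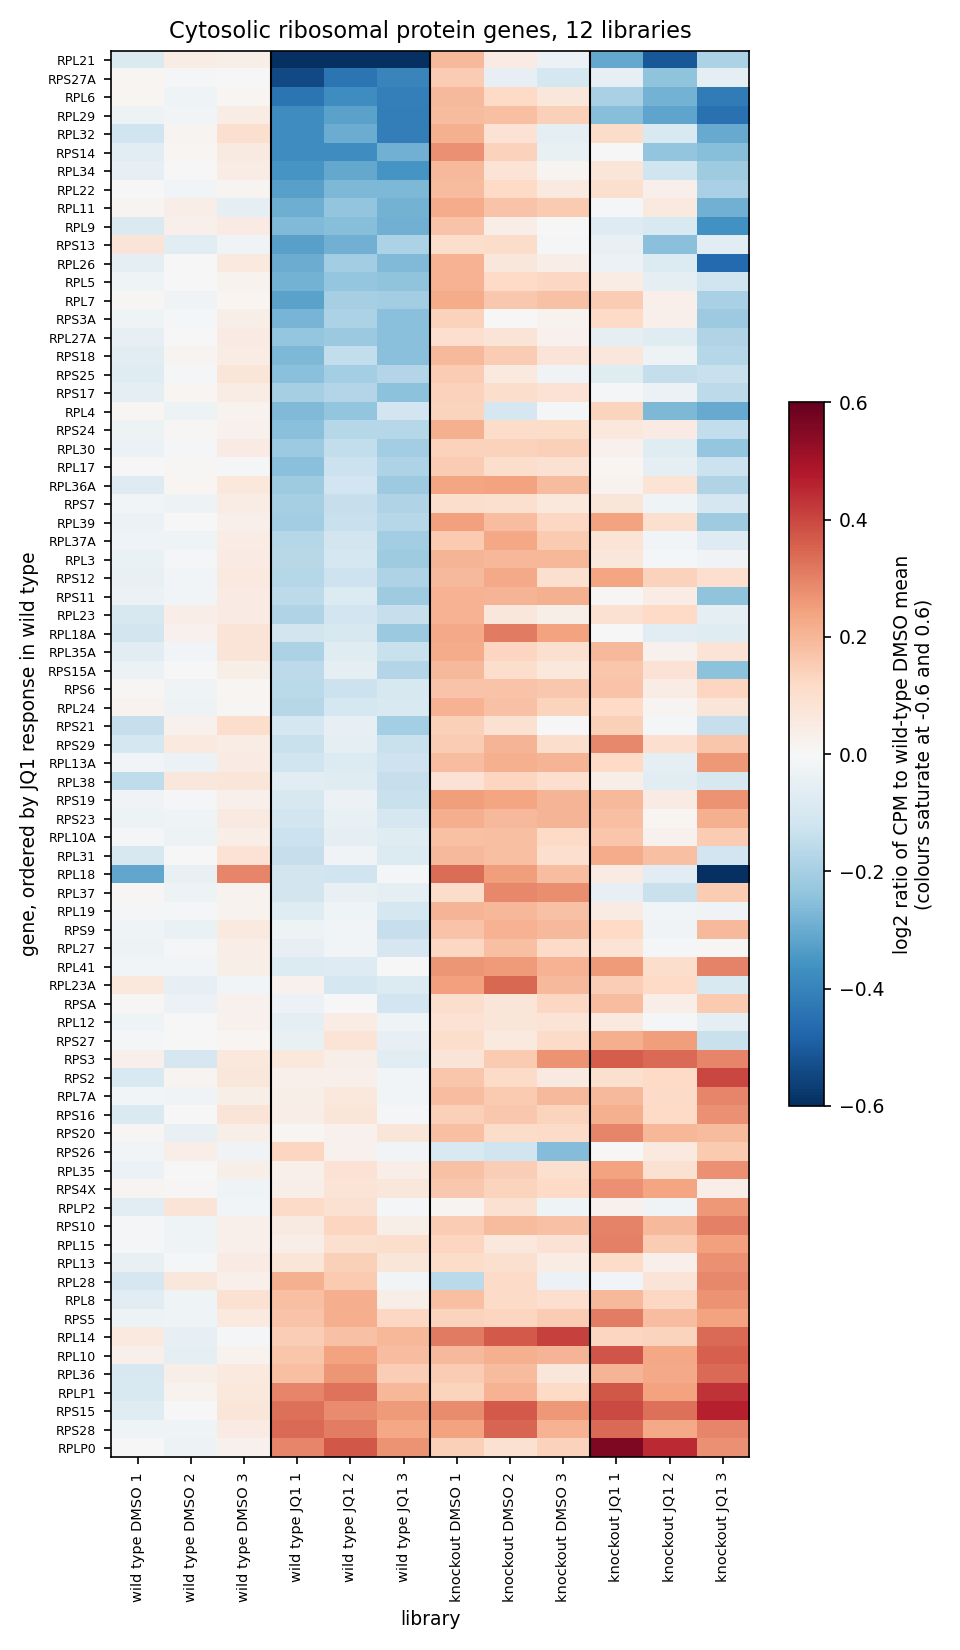
Log2 ratio of each member's CPM to its wild-type DMSO mean in each of the 12 libraries (columns), with the genes (rows; 1 is left out) ordered by their JQ1 response in wild-type cells. RPL21, at the top, is lowest in wild-type JQ1, RPLP0, at the bottom, is higher in both JQ1 groups, and knockout DMSO is above 0 for nearly all genes; RPL18 varies most within groups.

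JQ1 in knockout cells gave a like order of genes. There, 5 members were higher and 24 lower, against 16.7% and 17.8% of all tested genes (34.4% in either direction), and the median was -0.09 against -0.00 for all genes. Scaling by library totals gave 1 higher and 45 lower, with a median of all genes of -0.12. Without DMSO replicate 1 of the knockout 12 members were lower. Without DMSO replicate 3 of the knockout 3 were higher, and without its JQ1 replicate 3 8 were. Fitting only the 2 groups compared gave 1 higher and 10 lower. The groups did not overlap for 11 members upward and 28 downward, where 20.3% and 22% of all genes did so. In the large subunit 3 of 46 members were higher and 18 lower, with a median of -0.14. In the small subunit 2 of 31 were higher and 6 lower, with a median of -0.05.

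RPL29 and RPL6 fell here too. RPL29 was at 1455, 1448 and 1412 CPM with DMSO and at 1069, 1025 and 935 CPM with JQ1 (log2 fold change -0.51 ± 0.05, edgeR adjusted p = 3.11e-06). RPL6 was at 1702, 1613 and 1558 CPM against 1298, 1219.9 and 1109 CPM (-0.43 ± 0.06, edgeR adjusted p = 3.19e-05). RPL21 was at 549, 495 and 467 CPM against 387, 336 and 419 CPM (-0.40 ± 0.08, edgeR adjusted p = 0.000797). The groups of these 3 genes did not overlap, though the spread among knockout libraries of RPL21 was wider than among wild-type libraries. RPS27A was at 564, 492 and 472 CPM against 491, 429.5 and 490.1 CPM; these groups overlapped and the log2 fold change was -0.11 (edgeR adjusted p = 0.238).

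RPL18 had the lowest estimate, -0.52 ± 0.19 (edgeR adjusted p = 0.0493), and the least stable. Its levels were 49.8, 47.1 and 45.0 CPM with DMSO and 40.9, 37.9 and 20.5 CPM with JQ1, so that a single library held most of the fall. Without that library, JQ1 replicate 3, the log2 fold change was -0.26 and did not pass 0.05. RPL18 was also the member with the widest spread within groups, a coefficient of variation of 19.9% where the median member had 4.99%.

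RPLP0 and RPLP1 rose in knockout cells as well. RPLP0 was at 2221, 2141 and 2213 CPM with DMSO and at 2965, 2744 and 2436 CPM with JQ1 (0.31 ± 0.06, edgeR adjusted p = 0.000976). RPLP1 was at 1247, 1313 and 1235 CPM against 1468, 1342 and 1532 CPM (0.19 ± 0.06, edgeR adjusted p = 0.0187). JQ1 lay above DMSO in every library of both genes. RPS26, a small-subunit protein at the mRNA exit, rose from 79.7, 78.2 and 71.0 CPM to 85.1, 88.5 and 94.8 CPM (0.23 ± 0.06, edgeR adjusted p = 0.0122). RPL5 (-0.19, edgeR adjusted p = 0.00842) and RPL11 (-0.26, edgeR adjusted p = 0.0106) were again both lower.

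The JQ1 responses in wild-type and knockout cells share no libraries. RPLP0 and RPLP1 were among the members higher in both, 3 of 77 where 12.8% of all genes were. Lower in both were 18 members, where 12.4% of all genes were; they were 18 of the 28 that fell in wild-type cells and 18 of the 24 that fell in knockout cells. Across the 77 members the log2 fold changes in the genotypes had a Pearson r of 0.77, and across the 21621 other tested genes 0.66. These are correlations across genes, which are not independent replicates.

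**Figure D3:**
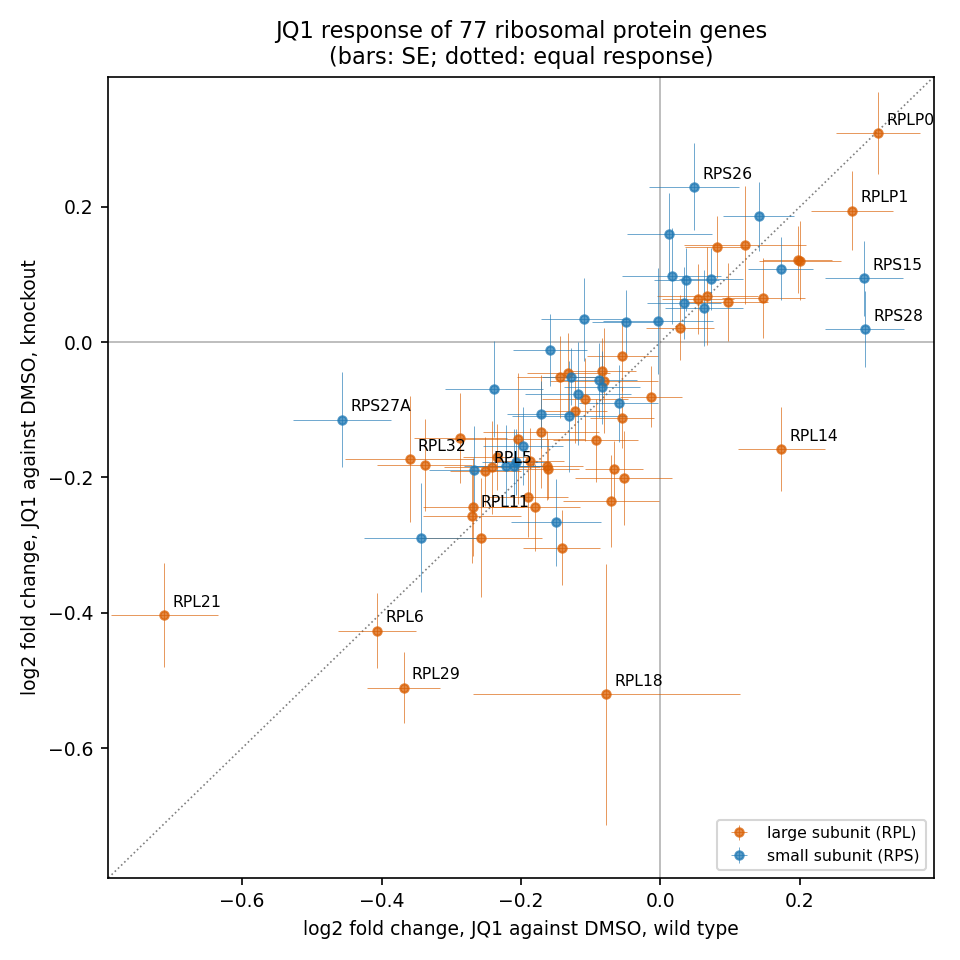
Log2 fold change with JQ1 in wild-type cells (horizontal) and in knockout cells (vertical) for the 77 members, with SE bars, large subunit in orange and small subunit in blue; the dotted line marks equal responses. RPL21, RPL6 and RPL29 lie low and RPLP0 high on both axes, while RPL14 lies at 0.17 in wild-type and -0.16 in knockout cells.

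Knockout cells had higher levels of nearly all ribosomal protein mRNAs than wild-type cells in DMSO. The estimate was positive for 75 of 77 members, where 49% of all tested genes were positive, and the median log2 fold change was 0.14 against -0.00 for all genes. The test called 17 members higher and none lower, where 7.92% of all genes were called, 3.47% higher and 4.44% lower. At an unadjusted p under 0.05, 48 members passed in either direction. The share of all genes at that threshold is not given here, so this count does not set the members apart. DESeq2 called 30 higher and none lower, with a median of 0.16 against 0.01 for all genes. The share of all genes that DESeq2 called is not given here, so its count alone does not set the members apart. Every knockout library was above every wild-type library for 57 members, where 14.8% of all genes were. The count of calls rested on single libraries more than the direction did. Without DMSO replicate 1 or 3 of the knockout it was 11 or 9. Without DMSO replicate 1 or 2 of the wild type it was 7 or 8. Without JQ1 replicate 3 of the knockout, which enters only through the shared spread, it was 37. The median stayed between 0.13 and 0.17 in these fits. Scaling by library totals gave 8 higher and a median of 0.09, against -0.05 for all genes.

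RPL14, a large-subunit protein gene at chr3:40457292-40468587, had the largest rise. It was at 112, 104 and 106 CPM in wild-type and at 133, 139 and 143 CPM in knockout cells (log2 fold change 0.36 ± 0.06, edgeR adjusted p = 0.00165). RPS15 was at 192, 203 and 213 CPM against 246, 261 and 243 CPM (0.30 ± 0.06, edgeR adjusted p = 0.00278), and RPS28 at 117, 117 and 123 CPM against 141, 152 and 138 CPM (0.27 ± 0.06, edgeR adjusted p = 0.00763). The groups of these genes did not overlap. RPL23A, at the exit tunnel, was at 95.4, 88.4 and 90.5 CPM against 108, 116 and 105 CPM (0.26 ± 0.07, edgeR adjusted p = 0.0298). For RPL23A the log2 fold change was 0.13 and no longer passed 0.05 once the counts of its pseudogenes were added.

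RPL41 and RPS6 also passed the test. RPL41 rose from 1978, 1978 and 2054 CPM to 2408, 2394 and 2314 CPM (0.24 ± 0.05, edgeR adjusted p = 0.00724), and RPS6 from 2123, 2083 and 2126 CPM to 2376, 2379 and 2363 CPM (0.17 ± 0.04, edgeR adjusted p = 0.0224). RPLP0 was at 0.12, RPL5 at 0.15 and RPL11 at 0.18 on the log2 scale, and none of these 3 passed. RPS26 was the lowest estimate, at 83.8, 87.4 and 83.5 CPM in wild-type and 79.7, 78.2 and 71.0 CPM in knockout cells. Its knockout libraries were all below its wild-type libraries, and its log2 fold change of -0.15 did not pass (edgeR adjusted p = 0.192).

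By subunit, 11 of 46 large-subunit and 6 of 31 small-subunit members were higher, with medians of 0.15 and 0.14. Over all tested genes 3.47% were higher in this comparison, and no group was tested against that share. None of the 4 stalk proteins and neither RPL5 nor RPL11 passed. Among exit tunnel proteins 2 of 8 were higher, on the mRNA path 2 of 7, among Diamond-Blackfan genes 3 of 18, and among the small nucleolar RNA hosts 4 of 25.

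The same direction held under JQ1. Knockout cells with JQ1 were higher than wild-type cells with JQ1 for 23 members and lower for none. Of all genes 8.57% were called, 3.01% higher and 5.56% lower. An unadjusted p under 0.05 was reached by 46 members, and the share of all genes at that threshold is not given here. DESeq2 called 31 higher and none lower, with a median of 0.16 against 0.01 for all genes. The estimate was positive in 75 of 77 members against 49.7% of all genes, with a median of 0.15 against -0.00. Groups did not overlap for 39 members, all in the upward direction, where 10.7% of all genes were separate upward. Without JQ1 replicate 1 of the knockout 8 members were called higher, and without its JQ1 replicate 3 43 were. Without JQ1 replicate 1 or 3 of the wild type 8 or 11 were. The fit of these 2 groups alone called 7, the fit without the filter on low counts 15, and the fit with GC and length offsets 38. Shares of all genes called in these alternative fits are not given here.

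RPL21 and RPS27A, which had the largest falls with JQ1 in wild-type cells, had the largest differences here; both comparisons use the same wild-type JQ1 libraries. RPL21 was at 287, 294 and 296 CPM in wild-type and at 387, 336 and 419 CPM in knockout cells (log2 fold change 0.38 ± 0.08, edgeR adjusted p = 0.00539). RPS27A was at 349, 375 and 386 CPM against 491, 429.5 and 490.1 CPM (0.35 ± 0.07, edgeR adjusted p = 0.00602). No knockout library reached down to the wild-type levels of these genes.

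RPS12 and RPS3 followed. RPS12, a protein of the small-subunit beak, was at 483, 499 and 479 CPM against 641, 598 and 584 CPM (0.32 ± 0.05, edgeR adjusted p = 0.0013). RPS3, at the mRNA entry, was at 433, 424 and 396 CPM against 532, 523 and 506 CPM (0.32 ± 0.06, edgeR adjusted p = 0.00378). RPL41 was at 1889.9, 1896 and 2001 CPM against 2393, 2156 and 2461 CPM (0.28 ± 0.05, edgeR adjusted p = 0.00288), and RPS6 at 1889, 1931 and 1976 CPM against 2379.6, 2180.4 and 2312 CPM (0.25 ± 0.04, edgeR adjusted p = 0.00174). In each of these 4 genes the genotypes were separate. RPL5 passed as well (0.21, edgeR adjusted p = 0.017), RPL11 was at 0.20 (edgeR adjusted p = 0.109), and RPLP0 did not pass.

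Of the small-subunit members 11 of 31 were higher, with a median of 0.18, and of the large-subunit members 12 of 46, with a median of 0.13. Over all tested genes 3.01% were higher in this comparison, and no group was tested against that share. None of the stalk or exit tunnel proteins passed. On the mRNA path 2 of 7 were higher, among Diamond-Blackfan genes 5 of 18, and among the small nucleolar RNA hosts 10 of 25.

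The knockout comparisons with and without JQ1 share no libraries. RPL3, RPL7A, RPL24, RPL41, RPS6, RPS10, RPS19 and RPS23 were higher in both, 8 of 77 members where 1.52% of all genes were. No member was lower in both, where 2.84% of all genes were. These 8 were among the 17 higher in DMSO and the 23 higher in JQ1. Although both sets of estimates were positive for 75 of 77 members, they did not rank the members alike. Across members the log2 fold changes had a Pearson r of -0.01, and across the 21621 other tested genes 0.47. The members' estimates spanned a narrow range, with lowest and highest values of -0.15 and 0.36 in DMSO and of -0.19 and 0.38 in JQ1.

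**Figure D4:**
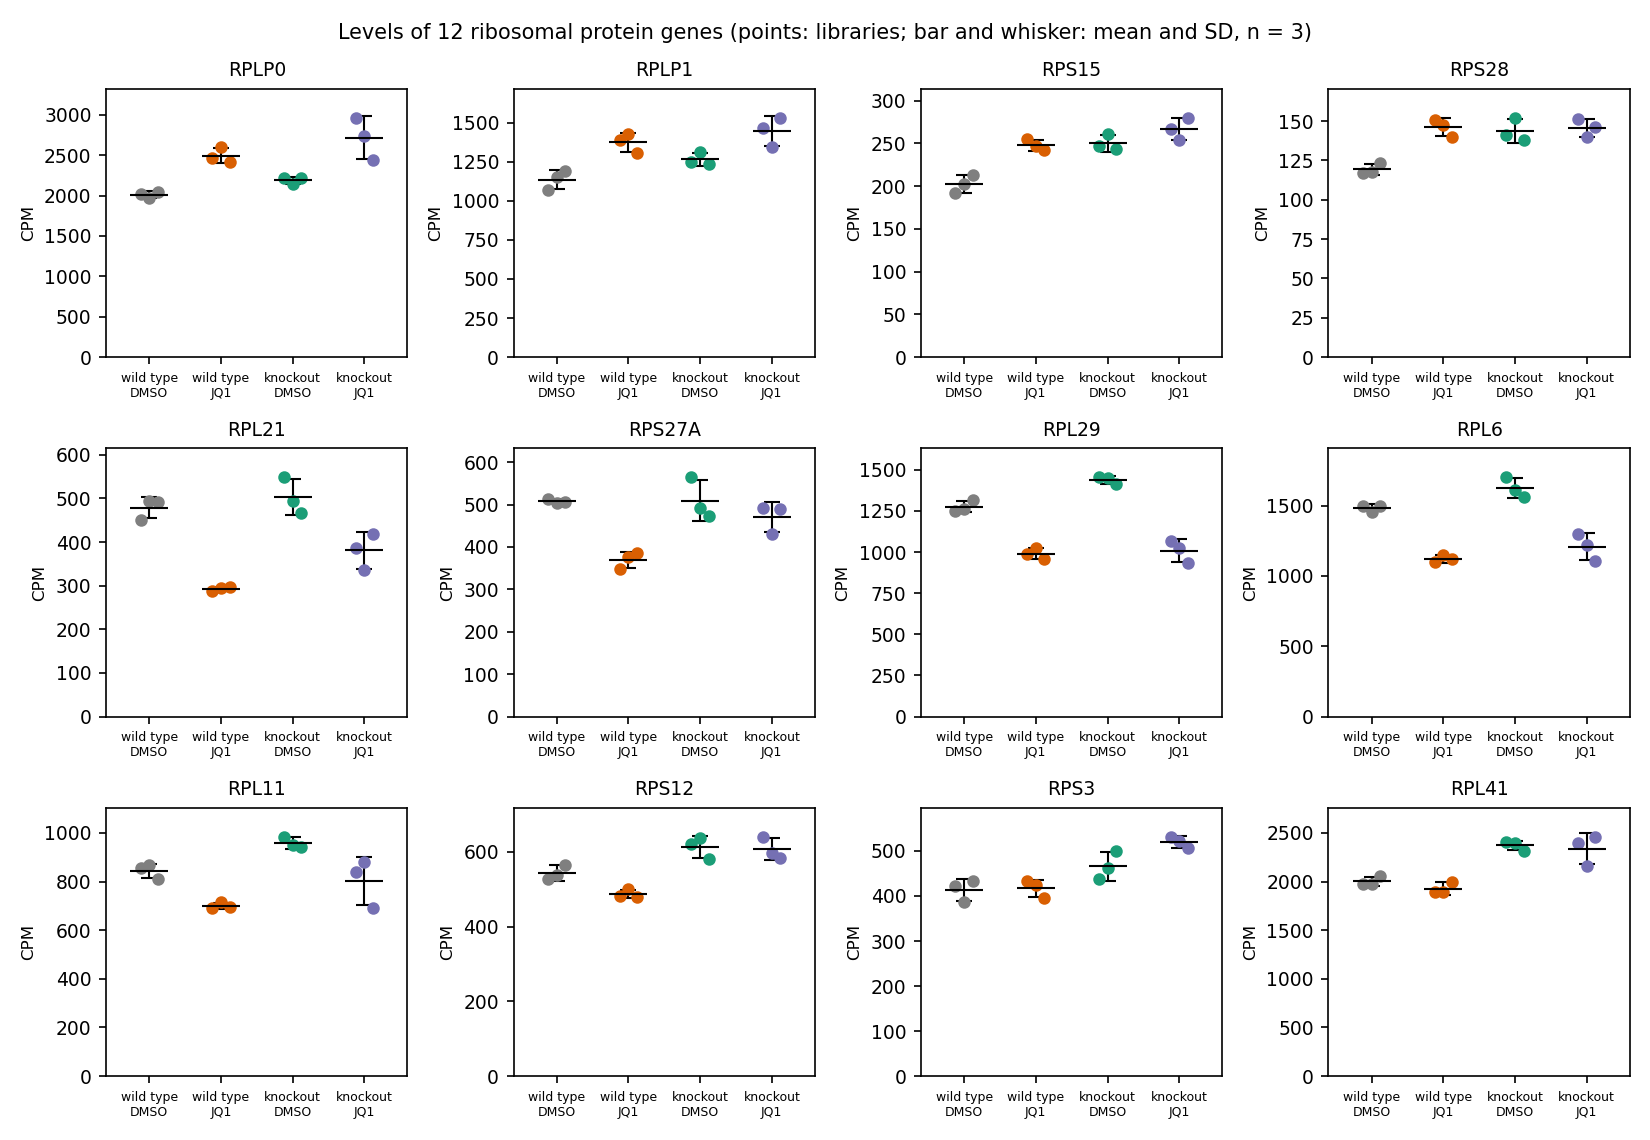
CPM of 12 members in each library (points) with the mean and SD of each group (bar and whisker, n = 3), axes from 0. RPLP0 and RPLP1 are higher with JQ1 in both genotypes, RPL29 and RPL6 lower in both, and RPL41 is higher in both knockout groups, at 2156 to 2461 CPM, than in the wild-type groups, at 1889.9 to 2054 CPM.

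The difference between the JQ1 responses of the genotypes, the interaction, passed for no member with edgeR at an adjusted p under 0.05. Of all genes 0.134% passed (0.0323% upward and 0.101% downward). An unadjusted p under 0.05 was reached by 5 members, and the share of all genes at that threshold is not given here. The 5 are thus described and not set apart from other genes. DESeq2 called 2, RPL14 and RPS28, and its share of all genes is not given here. Over 22 alternative analyses RPL14 passed in 2 and RPS28 in 1. RPL14 rose from 112, 104 and 106 CPM to 119, 121 and 123 CPM with JQ1 in wild-type cells (0.17 ± 0.06, edgeR adjusted p = 0.0444). In knockout cells it was at 133, 139 and 143 CPM with DMSO and at 118, 118 and 136 CPM with JQ1 (-0.16, edgeR adjusted p = 0.0633). The interaction was -0.33 ± 0.09 (edgeR adjusted p = 0.243), and without JQ1 replicate 3 of the knockout it was -0.40 and passed the test. The other 4 were RPS27A at 0.34 ± 0.10 and RPL21 at 0.31 ± 0.11, with the smaller fall in the knockout, and RPS28 at -0.27 ± 0.08 and RPS15 at -0.20 ± 0.08, with the smaller rise there. None of the 4 passed with edgeR (adjusted p from 0.304 to 0.512).

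GC content of the transcript went with the JQ1 response among members. In wild-type cells Pearson's r between GC percent and the log2 fold change was 0.48 across the 77 members and 0.08 across 14078 other protein-coding genes. Of the 39 members at or below the median GC content of 51.5%, 2 were higher and 21 lower; of the 38 above it, 7 were higher and 7 lower. In knockout cells r was 0.29, with 3 higher and 14 lower in the GC-poor part and 2 higher and 10 lower in the GC-rich part. Transcript length showed an r of 0.12 in wild-type and of 0.10 in knockout cells. With per-library trends on GC and length removed from all genes, r with GC was 0.23 in wild-type and 0.06 in knockout cells, and 7 members were higher and 30 lower with JQ1 in wild-type cells. For the knockout effect under JQ1, r with GC was -0.38 across members, 0.01 across the other protein-coding genes, and -0.33 across members with these trends removed. There 15 members were higher in the GC-poor part and 8 in the GC-rich part. For the knockout effect in DMSO, r across members was 0.09. These correlations are across genes and describe these libraries. The part of base composition in these differences was not tested.

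**Figure D5:**
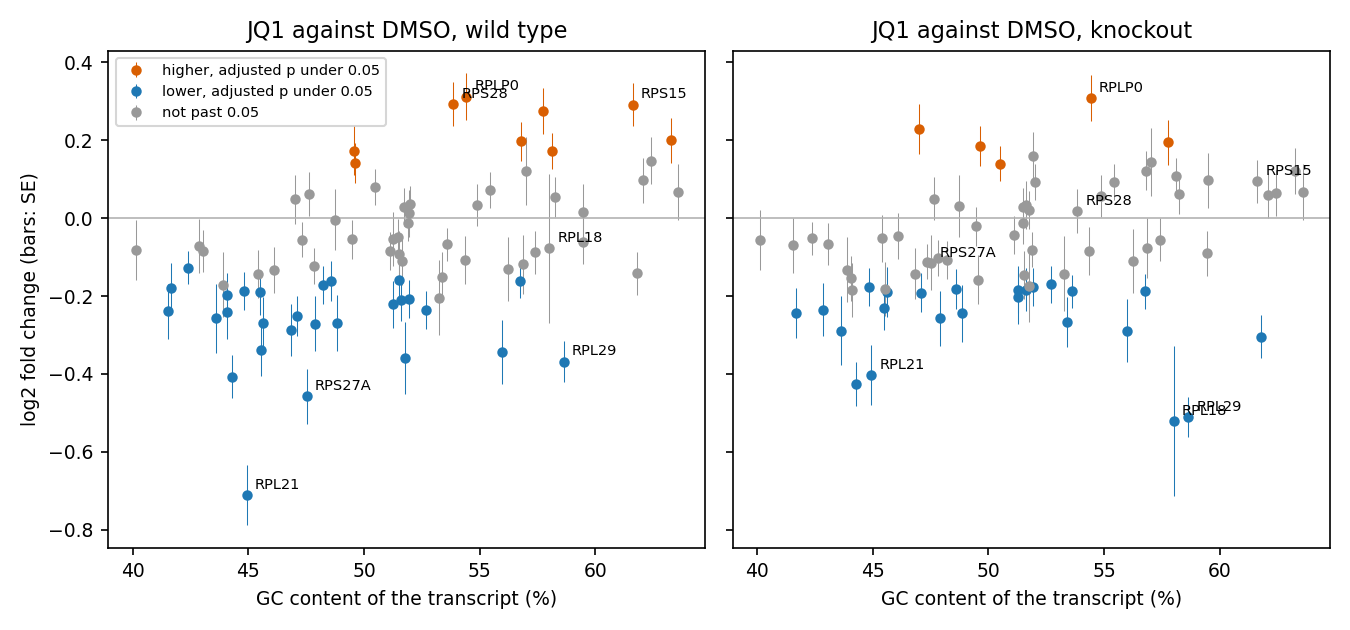
Log2 fold change with JQ1 against DMSO (vertical, SE bars) by GC content of the transcript in percent (horizontal) for the 77 members, in wild-type (left) and knockout cells (right). Orange marks members higher and blue members lower at an adjusted p under 0.05; in wild-type cells 21 of 28 falls are at or below 51.5% GC, with RPL29 among the exceptions.

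Short motifs were searched on both strands of the RefSeq promoters, from 250 bases before the start to 50 after it; none of the letter strings is contained in another. The ETS core CCGGAAG was in 22 of 62 members (35.5%) and in 12.2% of all promoters. The YY1 core AAGATGGC was in 6 (9.68%) and in 3.52%, the E-box CACGTG in 4 (6.45%) and in 8.77%, and TATAA in 12 (19.4%) and in 24.2%. On the printed strand TATAA stands in the windows of RPLP0, in attataaaagg, and of RPS28, in cctataaagg, and the RPS28 window also holds CACGTG, in agcacgtgac. The 12 members with TATAA had a median JQ1 response of 0.02 in wild-type and 0.03 in knockout cells, and the 50 without it of -0.12 and -0.11. The 22 members with the ETS core had medians of -0.19 and -0.17, and the 40 without it of -0.07 and -0.05. In the knockout comparison in DMSO the medians with and without these motifs were 0.17 and 0.14 for TATAA and 0.14 and 0.14 for the ETS core. A match to such letters is a description of the window and not a binding site.

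Other genes of the translation machinery came from lists of textbook members. Of 17 further genes whose mRNAs are known to begin with a TOP motif, 5 were higher and 4 lower with JQ1 in wild-type cells. In knockout cells 4 were higher and 4 lower. Over all tested genes 16.9% were higher and 16.2% lower in wild-type cells, and 16.7% and 17.8% in knockout cells. EEF1D, a nucleotide exchange factor subunit of elongation factor eEF1, rose from 160.1, 175 and 184 CPM to 282, 278 and 255 CPM in wild-type cells (0.65 ± 0.06, edgeR adjusted p = 2.13e-06) and by 0.55 in knockout cells. EIF4B, a cofactor of the initiation helicase, fell from 1783, 1756 and 1806 CPM to 1381, 1464 and 1425 CPM (-0.32 ± 0.04, edgeR adjusted p = 3.65e-05), and NACA, of the nascent polypeptide-associated complex, from 107, 98.1 and 105 CPM to 82.5, 74.0 and 74.9 CPM (-0.43 ± 0.08, edgeR adjusted p = 0.000623). In knockout cells EIF4B was at -0.34 and NACA at -0.43, and both passed. EEF1D thus changed more in wild-type cells than every member but RPL21.

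In knockout cells with DMSO 3 of these 17 genes were higher and none lower, among them EEF1D (0.27, edgeR adjusted p = 0.0157) and EEF1G (0.23, edgeR adjusted p = 0.0228). Under JQ1 EEF1A1 (0.24, edgeR adjusted p = 0.00288) and EEF1B2 (0.27, edgeR adjusted p = 0.0173), also eEF1 subunits, were higher, and none was lower. Of all tested genes 3.47% were higher and 4.44% lower in DMSO, and 3.01% and 5.56% under JQ1. The list's median was 0.14 in DMSO and 0.13 under JQ1, close to the members' 0.14 and 0.15.

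The mitochondrial ribosome, which shares none of these proteins, had calls in both directions with JQ1. Of its 78 protein genes 17 were higher and 11 lower in wild-type cells, with a median of 0.01, where 16.9% and 16.2% of all genes were, and 15 were higher and 18 lower in knockout cells, with a median of -0.02, where 16.7% and 17.8% of all genes were. In knockout DMSO 7 were higher and none lower, with 70 of 78 estimates positive and a median of 0.11. Of all genes 3.47% were higher and 4.44% lower there, and 49% were positive. Under JQ1 3 were higher and 1 lower, with 53 of 78 positive and a median of 0.05. Of all genes 3.01% were higher and 5.56% lower there, and 49.7% were positive.

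Paralogues of ribosomal protein genes include some with larger changes than most members. RPL22L1 fell with JQ1 from 58.8, 60.8 and 61.5 CPM to 34.9, 38.2 and 37.5 CPM in wild-type cells (-0.71 ± 0.09, edgeR adjusted p = 3.15e-05) and by 0.62 on the log2 scale in knockout cells. RPS27L, a p53 target and paralogue of RPS27, was higher in knockout cells, at 85.8, 75.3 and 73.1 CPM against 56.9, 56.6 and 57.8 CPM in DMSO (0.45 ± 0.07, edgeR adjusted p = 0.00126) and by 0.39 under JQ1. Its counterpart RPS27 itself was at 0.09 and 0.13 and did not pass. RPL7L1 fell with JQ1 in wild-type cells (-0.42, edgeR adjusted p = 0.000157) and was higher in knockout cells under JQ1 (0.30, edgeR adjusted p = 0.0086). RPL36AL rose with JQ1 in wild-type cells (0.22, edgeR adjusted p = 0.0207) and was higher in knockout cells in DMSO (0.28, edgeR adjusted p = 0.0181). Of the 7 paralogues tested, 2 were higher and 3 lower with JQ1 in wild-type cells, where 16.9% and 16.2% of all genes were. In either knockout comparison 2 were higher and none lower. The share of all genes higher there was 3.47% in DMSO and 3.01% under JQ1.

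Dedicated chaperones of ribosomal proteins were measured for 8 genes. HEATR3, which brings RPL5 and RPL11 into the nucleus, rose with JQ1 from 23.7, 25.6 and 26.1 CPM to 37.3, 36.0 and 34.6 CPM in wild-type cells (0.52 ± 0.08, edgeR adjusted p = 0.000163) and by 0.61 in knockout cells, while both of its clients fell. AAMP rose by 0.27 and 0.36. LTV1, a small-subunit assembly factor, fell by 0.22 in wild-type and 0.19 in knockout cells, and PDCD2, a chaperone of RPS2, fell by 0.30 in knockout cells. None of the 8 passed in either knockout comparison, where 7.92% of all genes did in DMSO and 8.57% under JQ1.

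Of 10 regulators of ribosomal protein mRNA synthesis or TOP mRNA translation, 3 were higher and 2 lower with JQ1 in wild-type cells. The shares of all genes were 16.9% and 16.2% in wild-type cells, and 16.7% and 17.8% in knockout cells. EIF4EBP1 encodes a repressor that binds the cap-binding protein and is inactivated by mTOR. It rose from 73.1, 74.5 and 74.7 CPM to 123, 112 and 113 CPM (0.64 ± 0.09, edgeR adjusted p = 4.73e-05). RPS6KB2, an S6 kinase, rose by 0.36, and the transcription factor YY1 fell by 0.28. In knockout cells 1 was higher with JQ1, RPS6KB2 at 0.28, and 3 were lower, among them SP1 at -0.34 and YY1 at -0.29. In knockout against wild-type cells with DMSO 3 were higher and none lower: MYC by 0.50 (edgeR adjusted p = 0.00835), EIF4EBP1 by 0.39 and RPS6KB2 by 0.28. None of the 10 passed between genotypes under JQ1. Of all genes 3.47% were higher in knockout DMSO, and 8.57% passed in either direction between genotypes under JQ1.

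Members followed their own sum to different degrees. Over the 12 libraries Pearson's r of a member's log2 CPM with the log2 of the summed level had a median of 0.76 and reached 0.97 for RPL35A, and members are part of that sum. RPS26 was at -0.52, RPL28 at -0.32, RPLP2 at -0.04 and RPLP0 at 0.03; RPL35A, RPL28 and RPLP2 were singled out after their values were seen. Among 11174 other genes with at least 5 CPM, RAB13, a small GTPase gene, had the profile most like the sum, with an r of 0.96 over the 12 libraries. RAB13 was at 169, 172 and 174 CPM in wild-type DMSO, 163, 162 and 159 CPM in wild-type JQ1, 216, 202 and 208 CPM in knockout DMSO and 199, 190.5 and 187 CPM in knockout JQ1. HLA-DRB1 (0.96) and IL1RAP (0.94) came next. The libraries share the 4 groups, so a gene that differs between the genotypes in the same way reaches a high r.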

How the data were processed

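RNA of 12 A375 samples was sequenced after ribosomal RNA depletion as directional libraries, per the labels' protocols. The authors deposited estimated counts per gene symbol; per the submitters' processing notes the tools included Trim Galore, cutadapt, FastQC, MultiQC, kallisto and DESeq2 and the build GRCh38.p10, with no roles given. Whether counting used the strand is not given in the sources used here. The authors also deposited a normalized signal, used here only as an alternative scaling.

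Because the tests had been planned for raw counts, these values were first rounded to integers. The filterByExpr function of edgeR, given the 4 groups, kept 21698 of 56609 genes, and libraries were scaled by TMM. All 12 libraries entered a single edgeR 4.0.16 quasi-likelihood fit (R 4.3.3, limma 3.58.1) with a term per group. There were 5 contrasts, two-sided, with Benjamini-Hochberg adjustment over all tested genes and a threshold of 0.05. SE was taken as |log2 fold change| over the root of the F statistic. CPM are per 1000000 of the TMM-scaled total. The code was tested on simulated data.

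Length and GC content are those of the protein-coding transcript of lower-median length in GENCODE 29, found for 97.7% of tested genes. The members, the lists (ribosome regions, disease genes, small nucleolar RNA hosts, ubiquitin fusions, paralogues, TOP translation genes, chaperones, regulators, mitochondrial ribosome, noncoding RNAs and cell type markers) and the alternatives were chosen with earlier results of these data known. Named were RPLP0, RPL5, RPL11, RPS6, RPS27A and RPL41, per contrast up to 4 members with the largest rise and fall past 0.05 whose groups did not overlap, the 3 highest and 3 lowest per kb, up to 3 genes per other list with the smallest adjusted p, and the 3 genes most like the sum. The alternatives were DESeq2 1.42.0, other scalings, no low-count filter, GC and length offsets, pseudogene counts added, a replicate block, only the groups compared, and each library left out. Some items are not reported here.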

Additional observations from a re-analysis of the deposited data

Results flagged for a closer look

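The JQ1 estimates of RPL14 had opposite signs in the genotypes, 0.17 in wild-type and -0.16 in knockout cells on the log2 scale, and the second did not pass the test. In wild-type cells every JQ1 library (119, 121 and 123 CPM) was above every DMSO library (112, 104 and 106 CPM). In knockout cells JQ1 libraries at 118, 118 and 136 CPM stood against DMSO libraries at 133, 139 and 143 CPM, and each JQ1 library was below the DMSO mean of 138 CPM. The difference between the responses was -0.33 on the log2 scale and did not pass edgeR's test (adjusted p = 0.243); over the alternatives that left out a library its adjusted p ran from 0.0146 to 0.485. JQ1 replicate 3 of the knockout, which stood apart from its group, was the JQ1 library nearest to DMSO.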

How the results depend on the processing

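No result changed direction past the threshold in any alternative run. Counts of members higher or lower that moved by more than 1.5 times were these. DESeq2 gave 30 higher in knockout DMSO and 2 lower in the interaction. Omitting the low-count filter gave 15 higher in knockout JQ1. GC and length offsets gave 28 and 38 higher in the knockout comparisons in DMSO and JQ1. Library totals gave 4 higher and 50 lower with JQ1 in wild-type cells (members' median -0.24), 1 and 45 in knockout cells (-0.21), and 8 higher in knockout DMSO. They also moved the median of all genes to -0.16 and -0.12, so relative to all genes the members stayed at -0.08 and -0.09, as with TMM (-0.07 and -0.09). Fitting only the groups compared gave 1 higher and 10 lower with JQ1 in knockout cells, 34 higher in knockout DMSO and 7 in knockout JQ1. The causes were not tested, and shares of all genes called in these fits are not given here. Leaving out each library gave 6 to 10 higher and 14 to 34 lower with JQ1 in wild-type cells, 3 to 8 and 12 to 33 in knockout cells, 7 to 37 higher in knockout DMSO, 8 to 43 in knockout JQ1 and 0 to 1 lower in the interaction. Replicate numbers did not pair the samples: correlations of deviations between same-numbered libraries ran from -0.11 to 0.08, and 2 of 12 libraries correlated best with their own number. With the replicate block, JQ1 gave 7 higher and 28 lower in wild-type and 5 and 23 in knockout cells, the knockout 12 higher in DMSO and 18 in JQ1, and the interaction 0. Every member had at least 649 counts in every library, and the part of depth in these results was not tested.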
